A study of Drosophila melanogaster with 9 samples.

Results

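The mitochondrial ribosomal protein genes of *Drosophila* were followed in heads of flies with a gain or a loss of dLMO, a LIM-domain transcriptional regulator. Genes were taken by name, as all those whose symbol on the array starts with mRpL or mRpS and that have a probe set (a group of short oligonucleotides giving 1 intensity) assigned to no other gene. This gave 69 genes of the 11982 measured, 44 with an mRpL and 25 with an mRpS symbol. They are read by 71 probe sets, and the brighter probe set was used for *mRpS11* and *mRpL47*, which have 2 each. Of the 73 genes with such symbols in a RefSeq gene table, *mRpS10* and *mRpL53* were left out because their probe sets also match a neighboring gene, and *mRpL34* and *mRpL37* because no single-gene probe set was listed for them.

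Mitochondria keep a ribosome of their own, which makes the few proteins encoded by mitochondrial DNA, core subunits of the respiratory chain and the ATP synthase. All of its proteins are encoded in the nucleus, made in the cytosol and imported. Some descend from proteins of the bacterial ribosome, while others, among them many of the large subunit, were added after mitochondria arose. In flies, mutations in such genes are known to slow growth and, for *tko*, to cause seizures after a mechanical shock.

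RNA came from heads of adult males of 3 genotypes, each on 3 Affymetrix Drosophila 2.0 arrays: *BxJ*, a *dLmo* gain-of-function mutant, *EP1306*, a *dLmo* loss-of-function mutant, and the control *w;iso*. Both mutations had been crossed into the control background, a *white* mutant stock isogenic for chromosomes II and III, whereas *dLmo*, named *Bx* on the array, lies on chromosome X. The labels describe flies of 2 to 3 days combined into 1 pool of 600 whose RNA was then divided in 3, and the methods describe 3 groups of 200 heads from flies of 2 to 4 days. If the RNA was divided from 1 pool, the arrays of a genotype are technical replicates, so p-values measure only the spread between these samples. In head RNA, fewer cells of a type and less RNA per cell cannot be told apart.

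On the brighter *Bx* probe set the intensity was 623 to 676 in *BxJ*, 115 to 215 in the control and 106 to 176 in *EP1306*. On the dimmer one it was 124 to 157, 23.7 to 46.0 and 21.9 to 22.5. *BxJ* was above the control on both, and *EP1306* overlapped with the control on the brighter one only. Arrays of the same genotype correlated at 0.994 to 0.998 over all probe sets. Photoreceptor genes were bright in every genotype. Their mean log2 intensity over 5 markers was 12.34 to 12.52 in *BxJ*, 12.41 to 12.56 in *EP1306* and 12.52 to 12.67 in the control. Neurons (5 markers) read 7.46 to 7.56, 7.64 to 7.71 and 7.64 to 8.16 in the same order. Glia (4 markers) read 10.98 to 11.07, 10.99 to 11.13 and 11.08 to 11.23. For neurons and glia *BxJ* was below the control without overlap, and *EP1306* overlapped with the control. The mean over 15 accessory gland markers, transcripts of the male reproductive tract, was 6.07 to 7.82 in *BxJ*, 4.78 to 6.28 in *EP1306* and 4.78 to 5.92 in the control. Testis (16 markers) read 5.2 to 6.3, 4.6 to 5.1 and 4.6 to 5.4 in the same order. Fat body (7 markers) read 8.36 to 9.40, 8.18 to 8.23 and 7.96 to 9.67, with the highest value on control replicate 1. The mean over 5 muscle markers was 11.44 to 11.48 in *EP1306*, below the 11.87 to 12.02 of *BxJ* and the 11.95 to 12.02 of the control, and 3 of these 5 passed the test as lower in *EP1306*. Spike-ins, control RNAs added before hybridization, had means of 8.66 to 9.57 in *BxJ*, 8.88 to 9.78 in *EP1306* and 9.83 to 11.12 in the control. On the 3 probe sets for 18S ribosomal RNA, every mutant array was below every control array. The one for its middle read 8.97 to 10.56 in *BxJ*, 10.07 to 10.83 in *EP1306* and 11.46 to 14.09 in the control (log2). Only accessory gland markers and spike-ins entered fits, named below, which do not decide their part in the values of the mitochondrial ribosomal protein genes. The accessory gland fit rests on fewer arrays. Control arrays all had higher spike-in means than mutant arrays, so that covariate cannot be fully separated from genotype. The part of the other differences was not tested.

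All 69 genes were expressed in heads. Each had an intensity of at least 50 on 3 or more arrays, and their values ran from 77.8 for *mRpL21* to 4283 for *mRpS5*. The spread within a genotype was small, with a median pooled SD of 0.0991 on the log2 scale, against 0.127 over 5401 genes in the same intensity range. For 36 of the 69 genes this SD was under 0.1, and the largest was 0.250, for *mRpL11*. *mRpS18C* shows how level a member could be. It read 214, 240 and 226 in *BxJ*, 226, 226 and 227 in the control and 241, 210 and 228 in *EP1306*.

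In *BxJ*, no mitochondrial ribosomal protein gene passed the test against control. The count was 0 of 69 at an adjusted p under 0.05 from limma, where 0.288% of all probe sets passed, and 7 of 69 at an unadjusted p under 0.05, where 12.1% of all probe sets did. Over the 5401 genes in the same intensity range these shares were 0.537% and 16.3%. The methods' t-test gave 5 of 69 at its unadjusted threshold, beside 10.3% of all probe sets. It was run here on log2(intensity + 16) with no normalization added. The authors ran theirs on normalized values from which the control average had been subtracted. Differences from control on the log2(intensity + 16) scale, used for every difference here, lay between -0.28 for *mRpS28* and 0.26 for *mRpS14*. Their median was -0.03, with quartiles at -0.11 and 0.04, beside a median of -0.01 over all genes. The 95% interval of the difference lay within 0.5 of zero, a 1.41-fold change, for 68 of the 69 genes. The exception was *mRpS28*, a protein of the small subunit, with an interval of -0.62 to 0.07.

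In *EP1306*, 1 gene passed. *mRpL41*, a large-subunit protein with no bacterial counterpart, rose 1.37-fold, close to the threshold and with the call kept in only 4 of 19 alternatives, and no member fell. The count of 1 of 69 stood beside 1.14% of all probe sets, of which 0.453% rose and 0.687% fell, and the 6 of 69 at an unadjusted p under 0.05 beside 9.8%. Over the 5401 genes in the same intensity range, 2.39% passed and 19.2% had an unadjusted p under 0.05. The median difference was -0.00, with quartiles at -0.07 and 0.09, against -0.01 for all genes, and 34 of the 69 genes were above the control. The 95% interval lay within 0.5 of zero for 65 genes, and *mRpL11*, *mRpL39*, *mRpL41* and *mRpS26* were the others.

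Between the mutants, none of the 69 passed, beside 1.23% of all probe sets, and the smallest adjusted p was 0.0979 from limma. At an unadjusted p under 0.05 there were 7, beside 10.2%. Over the 5401 genes in the same intensity range these shares were 2.37% and 18.2%. By the F-test over the 3 genotypes the count was again 0, beside 1.49% of all probe sets, with 6 at an unadjusted p under 0.05, beside 11.9%. The median difference of *EP1306* from *BxJ* was 0.05, against 0.01 for all genes, and 44 of the 69 genes were higher in *EP1306*, as were 6851 of all 11982. These 3 comparisons share arrays, so their values are not independent of each other.

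**Figure D1:**
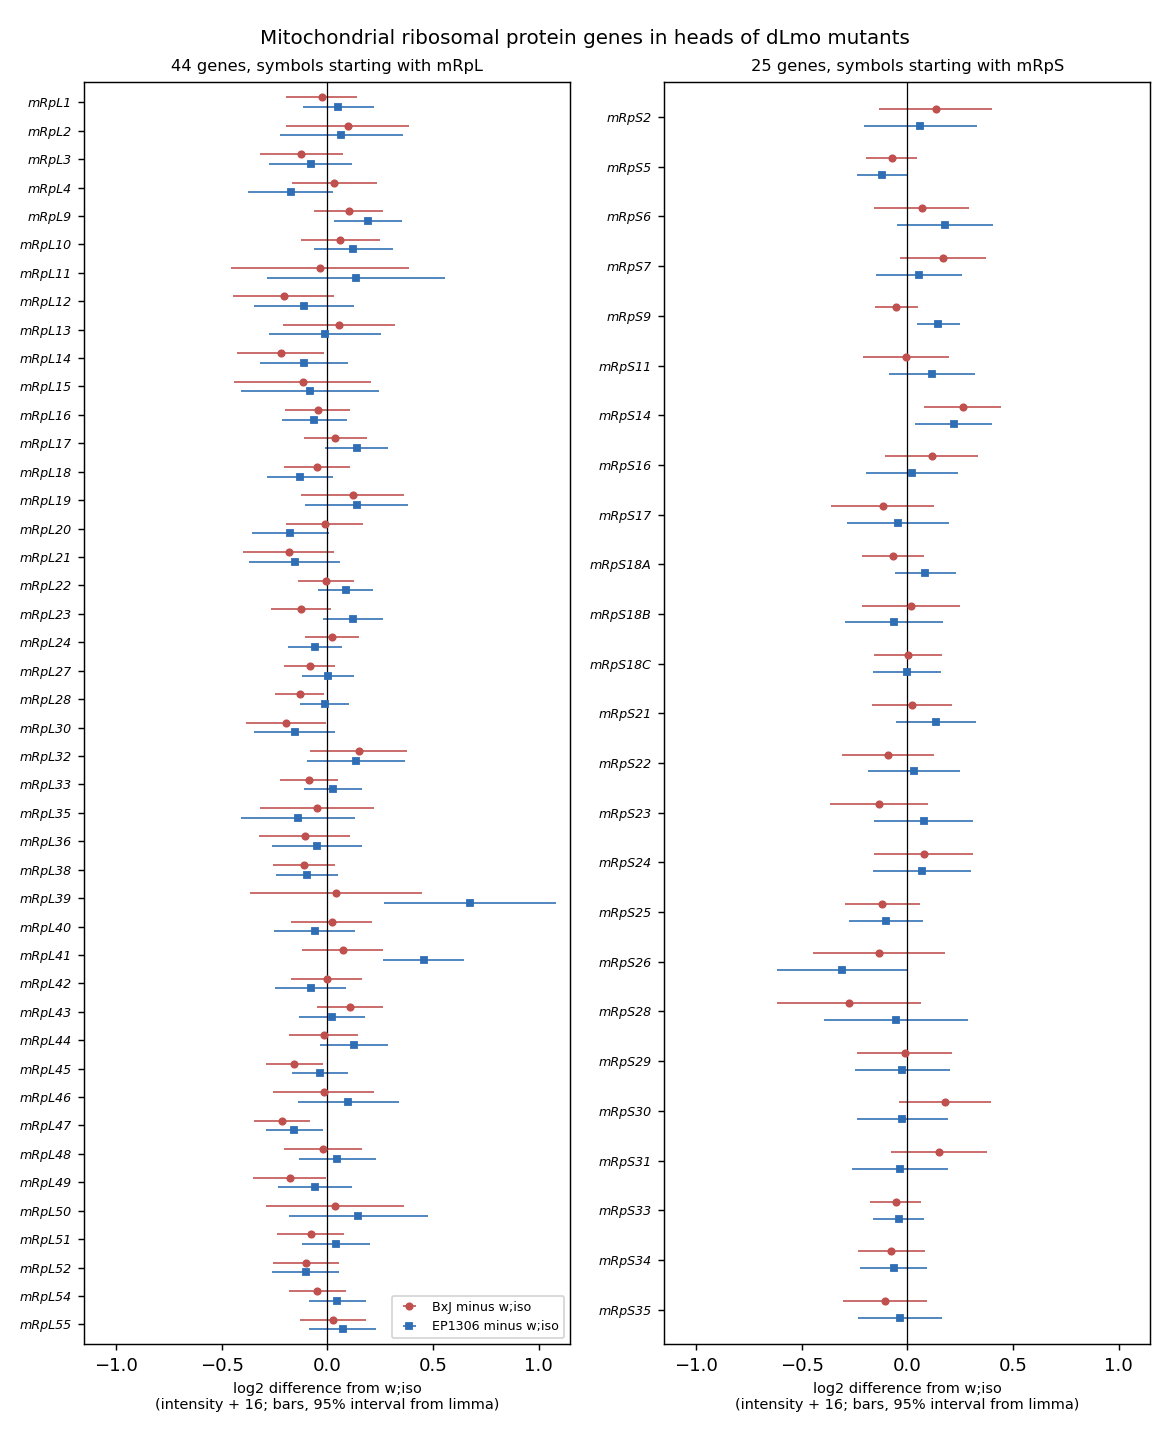
Log2 difference from control of each of the 69 genes in *BxJ* (circles) and *EP1306* (squares), with 95% intervals from limma, on the log2(intensity + 16) scale, for 44 mRpL symbols (left) and 25 mRpS symbols (right). Most points lie within 0.2 of zero, and *mRpL39* and *mRpL41* in *EP1306* stand farthest to the right.

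Few genes moved far. The difference was within 0.2 of zero for 92.8% of the members in *BxJ* and 94.2% in *EP1306*. Over all genes in the same intensity range these shares were 77.1% and 74.4%. Only *mRpL39* in *EP1306*, at 0.67, was more than 0.5 from the control in either mutant. The median of the set was within 0.05 of zero in both mutants, but with the spike-in covariate it was -0.12 in *BxJ* and -0.08 in *EP1306*. That covariate did not overlap between control and mutants, so the medians of this fit cannot be read as a shift of the set.

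**Figure D2:**
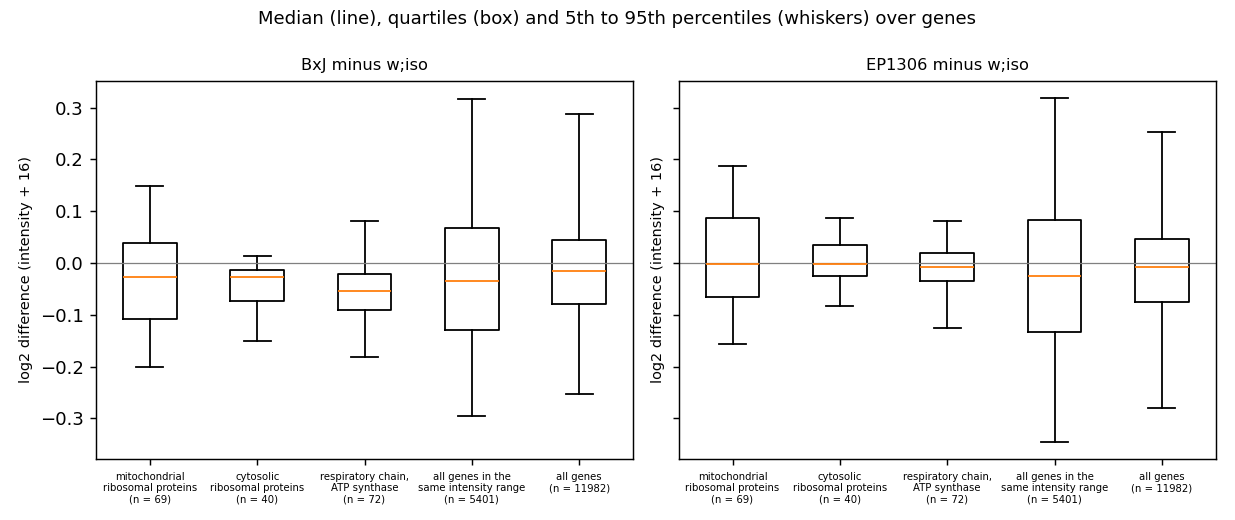
Differences of *BxJ* (left) and *EP1306* (right) from control over the 69 mitochondrial ribosomal protein genes, 40 cytosolic ribosomal protein genes, 72 respiratory chain and ATP synthase genes, 5401 genes in the same intensity range and all 11982 genes. Lines are medians, boxes quartiles and whiskers the 5th to 95th percentiles over genes on the log2(intensity + 16) scale, and the 69 genes spread less than the 5401 in both panels, and their medians are -0.03 (left) and -0.00 (right).

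*mRpL41* was the member whose rise passed the test. Its intensity was 470, 428 and 460 in control replicates 1 to 3, 447, 503.5 and 481 in *BxJ*, and 621, 567 and 698 in *EP1306*. All *EP1306* arrays were above all others, while *BxJ* and control overlapped. The log2 difference in *EP1306* was 0.46 (SE 0.08, 95% interval 0.26 to 0.65, n = 3 against 3, adjusted p = 0.0482 from limma), and in *BxJ* it was 0.07 (adjusted p = 0.662 from limma). Against *BxJ* directly, *EP1306* was higher by 0.38 (adjusted p = 0.0979 from limma). By exact permutation, two-sided, the rise in *EP1306* had p = 0.1, the smallest that 3 arrays against 3 can give. By the F-test over the 3 genotypes *mRpL41* did not pass (adjusted p = 0.0645 from limma). The call in *EP1306* was lost in each of the 9 fits that left out an array, with a difference of 0.38 without *EP1306* replicate 3 to 0.53 without *EP1306* replicate 2 and an adjusted p of 0.0504 to 0.157 from limma. It was also lost with 64 added before the log2 (adjusted p = 0.0528 from limma), without the intensity trend (0.0586), in a fit of only the 2 genotypes (0.146) and by the methods' t-test after adjustment. The same held without the array of each genotype highest in accessory gland transcripts, a fit on fewer arrays, with a difference of 0.42 (adjusted p = 0.438 from limma). With spike-in intensity as a covariate it was lost too, with a difference of 0.38 (adjusted p = 0.439 from limma). Spike-in means of control and mutants did not overlap, so this covariate cannot be fully separated from genotype and the fit does not decide its part. The muscle markers, lower in *EP1306*, moved with the rise of *mRpL41*, and their part in it was not tested. In the RefSeq gene table *mRpL41* overlaps *CG11808*, for which the difference in *EP1306* was 0.22 (adjusted p = 0.71 from limma). *CG11808* was dim, at 29.1, 29.9 and 51.6 in *EP1306* and 32.1, 25.9 and 27.5 in the control. Of its *EP1306* arrays, only replicate 3 was above all control arrays. In *BxJ* it read 36.1, 37.8 and 28.2, a difference of 0.17 (adjusted p = 0.622 from limma).

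*mRpL39*, another large-subunit protein without a bacterial counterpart, had the widest difference but a wider spread. Its intensity was 130, 85.1 and 138 in the control, 130, 130 and 101 in *BxJ*, and 168, 206 and 211 in *EP1306*. The *EP1306* arrays were above all others here too, and control replicate 2 was the lowest array. The difference in *EP1306* was 0.67 (95% interval 0.27 to 1.08, adjusted p = 0.167 from limma) and did not pass. In *BxJ* it was 0.04. Without control replicate 2 the difference in *EP1306* was 0.48, and without control replicate 3 it was 0.79. In the RefSeq gene table *mRpL39* overlaps *Zip71B*, for which the difference in *EP1306* was 0.14 (adjusted p = 0.822 from limma).

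Among the 29 large-subunit proteins with a bacterial counterpart, none passed the test in any comparison, beside 0.288% to 1.23% of all probe sets. Their medians were -0.05 in *BxJ* and -0.01 in *EP1306*. Among the 17 without a counterpart, the group of *mRpL41* and *mRpL39*, medians were -0.02 and 0.04. The 13 small-subunit proteins with a counterpart had medians of 0.02 and 0.06, and the 10 without one -0.08 and -0.04. Subunits and counterparts were assigned from human and bacterial ribosomes, in which *mRpS30* and *mRpS18A* belong to the large subunit despite their symbols. In each of these classes the medians against control lay within 0.1 of zero. Those of *EP1306* against *BxJ* were 0.05, 0.11, -0.00 and 0.01, in the order of the classes above.

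*mRpL23*, the counterpart of a bacterial protein at the exit of the tunnel through which the new chain leaves, lay below the control in *BxJ* and above it in *EP1306*, without passing the test. Its intensity was 612, 567 and 584 in *BxJ*, 691, 618 and 618 in the control, and 706, 667 and 727 in *EP1306*. The *BxJ* arrays were below all others, and *EP1306* and control overlapped through control replicate 1. The mutants differed by 0.25 (95% interval 0.10 to 0.39, adjusted p = 0.163 from limma), with differences from control of -0.12 and 0.12.

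*mRpS9*, whose bacterial counterpart reaches the decoding region of the small subunit, was among the brightest members and among the tightest. It read 1353, 1334 and 1399 in *BxJ*, 1454, 1367 and 1416 in the control and 1578, 1507 and 1609 in *EP1306*. *EP1306* was above both other genotypes on every array, and *BxJ* and control overlapped. The difference of *EP1306* was 0.15 from control (adjusted p = 0.247 from limma) and 0.20 from *BxJ* (adjusted p = 0.105 from limma).

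**Figure D3:**
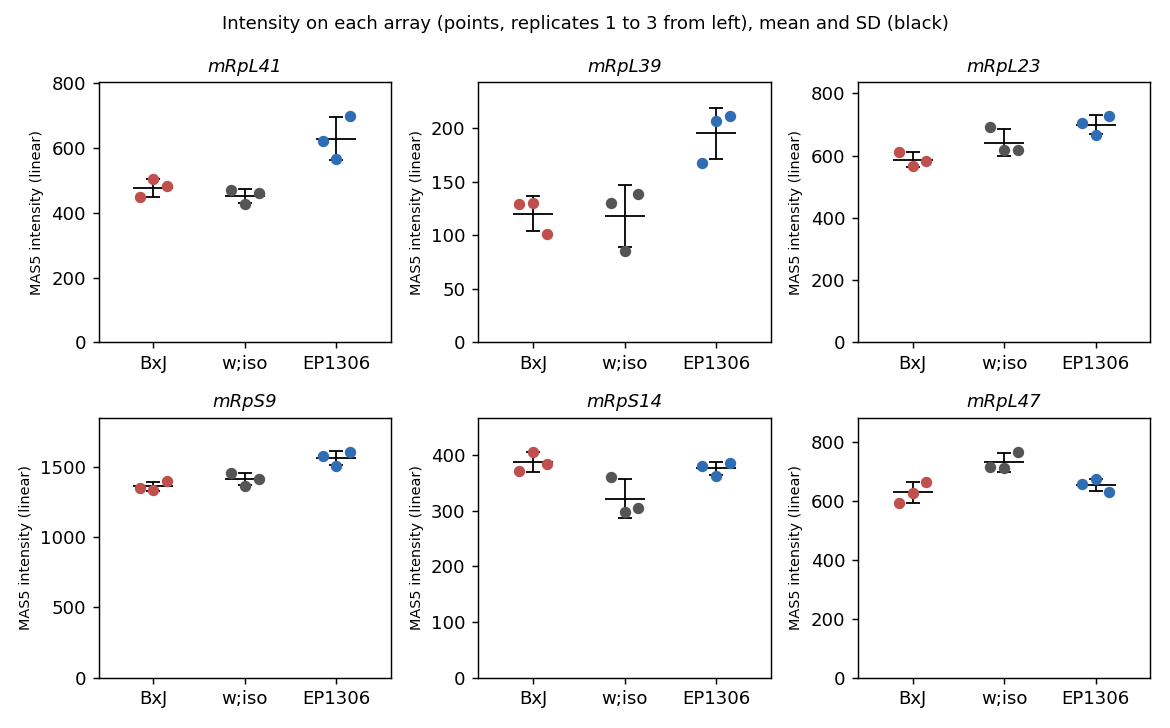
Deposited intensity, on a linear axis from 0, of 6 mitochondrial ribosomal protein genes on each of the 9 arrays (points), with the mean and SD of each genotype (black, n = 3). *EP1306* arrays are above all others for *mRpL41*, *mRpL39* and *mRpS9*, the control is lowest for *mRpS14* and highest for *mRpL47*, and for *mRpL23* the *BxJ* arrays are lowest.

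For a few genes, none of which passed the test, both mutants lay on the same side of the control without overlap. Above it was 1 member (*mRpS14*), beside 0.884% of all probe sets, and below it were 2 (*mRpL47* and *mRpL21*), beside 3.63%. Both comparisons use the same 3 control arrays. *mRpS14*, the counterpart of a protein in the head of the bacterial small subunit, read 361, 297 and 305 in the control, 372, 406 and 384 in *BxJ* and 379, 362 and 385 in *EP1306*. Every mutant array was above every control array, with the closest pair at 362 in *EP1306* and 361 in the control. The difference in *BxJ* was 0.26 (adjusted p = 0.297 from limma). In *EP1306* it was 0.22 (adjusted p = 0.375 from limma). *mRpS14* and *mRpL22* are the members within 2 Mb of *Bx* on chromosome X in the RefSeq assembly. *mRpL22* was at -0.01 in *BxJ* and 0.09 in *EP1306*, and its arrays overlapped with the control in both.

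*mRpL47*, whose bacterial counterpart sits beside the tunnel exit, showed the opposite order. It read 714, 709 and 766 in the control, 592, 627 and 664 in *BxJ* and 656, 672 and 631 in *EP1306*, with all mutant arrays below control. *BxJ* was at -0.21 (limma, adjusted p = 0.254) and *EP1306* at -0.16 (limma, adjusted p = 0.405). The second, dimmer *mRpL47* probe set did not share this order, at 0.03 and 0.02. *mRpL21*, the dimmest member by its lowest array, was at -0.18 in *BxJ* and -0.15 in *EP1306*, with control arrays of 91.8, 82.0 and 103 and mutant arrays from 77.8 to 81.4.

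Groups of arrays without overlap were counted over all members and set beside their share over all probe sets. In *BxJ*, 2 genes were above every control array and 10 below, or 2.90% and 14.5% of members, where 3.37% and 27.6% of all probe sets were. In *EP1306*, 6 were above and 4 below, or 8.70% and 5.80%, where 4.15% and 8.17% were. Between the mutants, 13 were higher in *EP1306* and 3 lower, or 18.8% and 4.35%, where 11.3% and 6.1% were. Among the 5401 genes in the same intensity range, the shares above and below were 5.15% and 16.1% in *BxJ*, 7.39% and 13.8% in *EP1306*, and 13.7% and 11.4% between the mutants. Only *mRpL54* was ordered without overlap from *BxJ* through the control to *EP1306*, as were 0.336% of all probe sets, with differences of -0.05 and 0.05.

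The genes below control without overlap included *mRpL14*, a counterpart of a protein at the subunit interface. It read 342, 345 and 328 in *BxJ*, 387, 351 and 460 in the control and 372, 359 and 369 in *EP1306*. The control arrays were far apart, and the difference in *BxJ* was -0.22 (adjusted p = 0.4 from limma), or -0.12 without control replicate 3. *mRpL30* was at -0.19 in *BxJ* and -0.15 in *EP1306*. *mRpL28*, one of the brightest members, was at -0.13 and -0.01. In *EP1306*, *mRpL18* was at -0.13 and *mRpL38*, a protein without a bacterial counterpart, at -0.10. *mRpL20*, the counterpart of a protein needed for assembly of the bacterial large subunit, was lower in *EP1306* than in *BxJ* by 0.16, which did not pass. In the other direction, *mRpL9* was at 0.19 in *EP1306* (adjusted p = 0.393 from limma), and *mRpS30* at 0.18 in *BxJ* and -0.02 in *EP1306*. *mRpS5*, the brightest member, was at -0.07 and -0.12, and *mRpS2*, a dim one, at 0.13 and 0.06. None of these passed.

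By chromosome, the members lie 12 on 2L, 10 on 2R, 17 on 3L, 19 on 3R and 11 on X. The X-linked members had a median of -0.11 in *BxJ*, with 9 of 11 below control, while the 1873 genes on X had a median of -0.02 and 1193 below. Without control replicate 1 this median was -0.06, and without *BxJ* replicate 3 it was -0.13. In *EP1306* the X-linked members had a median of -0.06, which was 0.01 without *EP1306* replicate 2 and -0.12 without control replicate 2. The grouping by chromosome was looked at after the values were known and carries no test.

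The level of the set as a whole differed between samples of the same genotype. The mean log2 intensity over the 69 genes was 8.66, 8.49 and 8.58 in the control, 8.55, 8.56 and 8.54 in *BxJ* and 8.61, 8.52 and 8.65 in *EP1306*. The control arrays spanned the mutants on both sides. On control replicate 1, 58 of 69 genes were above their own mean over the 9 arrays, and on control replicate 2 only 19 were. On these arrays 51.2% and 51.7% of all genes were above their means. On *EP1306* replicates 1 to 3 the counts were 41, 21 and 56, beside 39.5%, 47.2% and 48.8% of all genes. On *BxJ* they were 26, 24 and 26, or 37.7%, 34.8% and 37.7% of members, beside 37.0%, 33.7% and 37.5% of all genes. The median difference in *BxJ* was -0.07 without control replicate 2 and 0.02, with the sign turned, without control replicate 1.

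**Figure D4:**
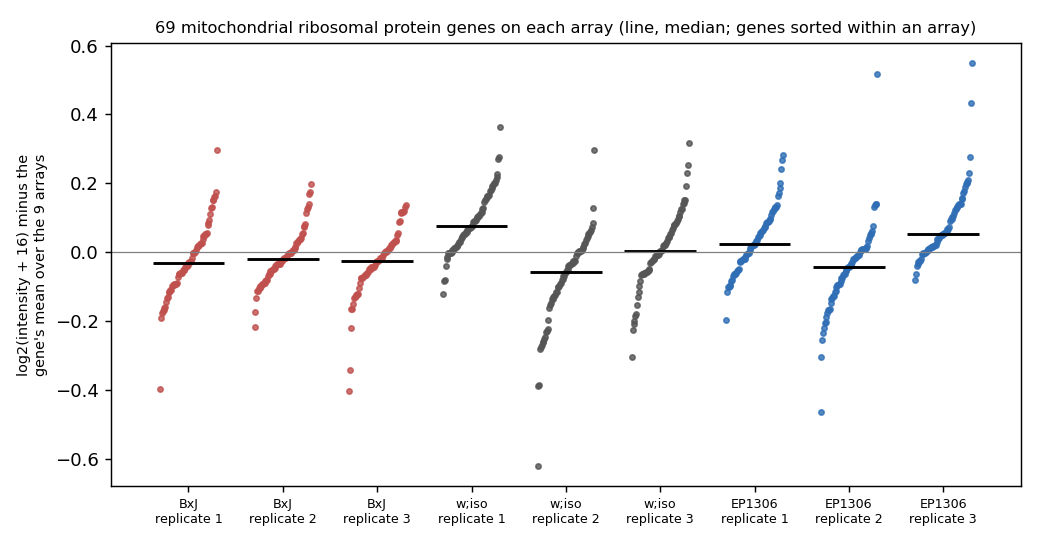
Log2(intensity + 16) of the 69 genes on each array, minus the gene's mean over 9 arrays (points, sorted within an array, line at the median). Control replicate 1 lies mostly above zero, with 58 of 69 genes, and control replicate 2 mostly below, with 19 of 69, whereas the *BxJ* arrays resemble each other.

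Other genes of mitochondrial gene expression did not pass the test. *tko*, the small-subunit counterpart of a bacterial decoding protein, was at -0.00 in both mutants, and *bonsai* at -0.04 in *BxJ* and -0.08 in *EP1306*. The lists held 9 translation factors, 17 aminoacyl-tRNA synthetases and GatCAB subunits, 12 genes of mitochondrial transcription and RNA processing and 3 of mitochondrial DNA replication. Of these, 0 passed the test in any comparison, beside 0.288% of all probe sets in *BxJ*, 1.14% in *EP1306* and 1.23% between the mutants. With *tko* and *bonsai* these 43 genes had a median of -0.02 in *BxJ* and one of 0.03 in *EP1306*, and 4 and 2 of them had an unadjusted p under 0.05 from limma, beside 12.1% and 9.8% of all probe sets. For 40 cytosolic ribosomal protein genes, 0 passed, beside the same shares of all probe sets, and the medians were -0.03 and -0.00. For 72 genes of the respiratory chain and ATP synthase, the medians were -0.05 and -0.01. There, 1 of the 72 genes (1.39%) passed in *EP1306*, beside 1.14% of all probe sets. This was *UQCR-11*, a subunit of complex III, which fell by 0.47 (adjusted p = 0.0386 from limma).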

How the data were processed

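Head RNA of 3 genotypes was measured on 9 arrays. The authors deposited 1 linear intensity per probe set (18952 in all), made with MAS5 per the labels. The sources used here give neither its version nor any further normalization. The number of arrays limits the precision. After 183 control probe sets were set aside, log2(intensity + 16) was taken of the deposited intensity. Array medians differed by 0.0818, so no scaling was applied. In R 4.3.3, limma 3.58.1 gave each genotype a mean (lmFit, eBayes with trend), with Benjamini-Hochberg adjustment over 18769 probe sets and a threshold of 0.05. These steps were first run on simulated data with known changes.

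Probe sets were named from the platform annotation (13647 with 1 gene, 402 with several, 4720 with none), and *Bx* from the study's gene table. The members and lists were chosen with earlier results of these data known. Genes described were those that passed the test, the 4 largest rises and falls without overlap in each comparison, the 3 brightest and dimmest, *tko*, *bonsai* and context genes that passed. *mRpS18C*, *mRpL54*, *mRpL11*, *mRpS26*, *mRpS28*, *mRpL22* and the neighboring genes were added after their values were seen. Neighboring genes were described only for *mRpL41* and *mRpL39*. Other described members, among them *mRpS14*, *mRpL47*, *mRpS9* and *mRpL9*, also overlap other genes in the RefSeq gene table.

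Alternatives were 1 or 64 added before the log2, a filter on low values, median centring, quantile normalization, no trend, the replicate number as a block, only 2 genotypes, leaving out arrays, a spike-in covariate, all probe sets of a gene and the methods' t-test.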

Additional observations from a re-analysis of the deposited data

Results flagged for a closer look

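*mRpL54*, a large-subunit protein without a bacterial counterpart, was the only one of the 69 genes whose arrays were ordered without overlap from *BxJ* through *w;iso* to *EP1306*, an order found for 0.336% of all probe sets. It read 147.7, 146.3 and 147.5 in *BxJ*, 152.1, 152.8 and 152.6 in *w;iso* and 158.4, 158.9 and 157.3 in *EP1306*. The steps were small, at -0.0465 in *BxJ* and 0.0480 in *EP1306* on the log2(intensity + 16) scale, but the arrays of a genotype lay closer still. Its pooled SD of 0.00571 was the lowest among the 5401 genes in the members' intensity range. The order thus rests on an unusually small spread, and each step was smaller than the 0.0818 by which array medians differed. It is listed here because the 2 mutants moved in opposite directions on every array. Whether their effects differ was tested only as the direct comparison of *EP1306* with *BxJ*, where the difference was 0.09 (adjusted p = 0.663 from limma) and did not pass.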

How the results depend on the processing

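The rise of *mRpL41* in *EP1306* passed the test in 4 of 19 alternatives: with 1 added before the log2, with quantile normalization, with median centring and with a filter on low values. The count of 1 member became 0 with 64 added, without the trend, in a fit of only the 2 genotypes, without the arrays highest in accessory gland markers, with the spike-in covariate, by the methods' t-test after Benjamini-Hochberg adjustment, and in the fits leaving out each array (0 to 0). With the replicate number as a block it was also 0 (*mRpL41*: adjusted p = 0.0668 from limma). Same-numbered arrays did not deviate together in most pairs (9 correlations from -0.376 to 0.289, 3 over 0.1). With so few arrays these correlations cannot decide whether the numbers pair the samples. The block changed no other call. The count was 2 with quantile normalization, which added *mRpS9*, and 2 with the filter, which added *mRpL39*. Between the mutants, where no member passed, it was 3 with quantile normalization (*mRpL41*, *mRpL23* and *mRpS9*) and 1 with the filter, without the trend, with the spike-in covariate and by the adjusted t-test. By the F-test it was 3 with quantile normalization and 1 with the filter, without the trend and by the adjusted t-test. The unadjusted t-test gave 5 in *BxJ*, 5 in *EP1306* and 10 between the mutants, with 8 by ANOVA, beside 10.3%, 6.39%, 8.84% and 10.1% of all probe sets. With the spike-in covariate, which cannot be fully separated from genotype, the medians were -0.124 in *BxJ* and -0.0755 in *EP1306*. Leaving out each array gave medians of -0.07 to 0.02, -0.02 to 0.04 and, between the mutants, 0.02 to 0.07. The filter tests fewer probe sets, and the cause of the other changes was not tested. In *BxJ*, limma called 0 members in every alternative. Among the 25 named differences whose arrays overlapped, none of them called, the sign changed 26 times over the alternatives, most often for *mRpL39* in *BxJ* and *mRpL28* in *EP1306*.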
